A study of Mus musculus with 23 samples.

Results

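A group of 10 genes of the enteroendocrine cell was followed across the 8 groups of the study: Chga, Chgb, Cck, Gcg, Gip, Sct, Sst, Nts, Ghrl and Tph1. They were chosen by name, through the symbols of the NCBI Gene numbers in the expression table, and are 10 of its 19215 entries. All 10 were in the table and all 10 passed the filter of a mean of at least 1 FPKM (fragments per kilobase of transcript, scaled to the sequenced fragments, a level relative to transcript length and library total), as did 11337 entries in all.

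RNA of the small intestine of male ICR mice was sequenced in 23 libraries. Every group had received busulfan, a DNA alkylating drug that injures the intestinal lining, once at 40 mg/kg at 3 weeks of age, so no group without busulfan was analysed here. From the next day, mice were gavaged daily for 1 week with saline (Sa) or with small intestinal contents (fecal microbiota transplantation, FMT) from donors given water (Con-FMT) or alginate oligosaccharide (AOS) at 10 mg/kg (A10-FMT) or 100 mg/kg (A100-FMT), and the study's schedule ended at 5 weeks of age. Donor contents were pooled within a donor group, so all mice of an FMT group shared 1 kind of inoculum. The sample names divide each treatment into a set 1 and a set 2, whose meaning is not given and for which the labels give no separate time. Groups had 3 libraries, apart from Sa of set 1, which had 2. The labels do not say that each library came from its own mouse, so p-values measure the spread between these samples.

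Enteroendocrine cells are scattered single cells of the gut epithelium that sense luminal contents and release peptides and amines to blood, nerves and neighbouring cells. Their secretory granules are built with chromogranins, encoded by Chga and Chgb, and different cells carry different hormones along the length of the gut. They arise in the crypts, as Paneth cells and goblet cells do, under transcription factors such as Neurog3, Neurod1 and Insm1.

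The labelled tissue was checked against marker genes. Epithelial genes stood high, led by the keratin gene Krt8 with a mean of 2533 FPKM over the 23 libraries. Transcripts of the muscle wall and of enteric neurons were near 0, the most abundant smooth muscle gene being Tagln (1.24 FPKM) and the most abundant neuronal gene Ret (0.346 FPKM). Markers of the ileal end (Fabp6, 779.6 FPKM) and of the upper small intestine (Gata4, 52.9 FPKM) were both present, and the labels name no segment. Among genes of other tissues and cells, pancreatic acinar genes reached 0.821 FPKM (Clps) and gastric genes 2.73 FPKM (Cblif). Of the mast cell list, only Mcpt1 (2.64 FPKM) and Kit (2.57 FPKM) passed the filter. Its other measured genes were below it, from Mcpt2 (0.927 FPKM) down to Cma1 (0.0035 FPKM). Of the pancreatic islet list, Pdx1, also a factor of the duodenum, reached 7.31 FPKM, and Ins1 and Ins2 were not analysed here. No gene of these lists was at 0 in every library.

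A single library stood apart. In replicate 3 of Sa set 1, the deviation of each gene from the median library rose with the GC content of the gene (Spearman's rho 0.69 across 10527 genes, against -0.22 to 0.22 in the other 22 libraries). Its Pearson correlation with the others was 0.944 to 0.965, where the other 22 correlated at 0.968 to 0.991 among themselves. Title and description of this library point to different columns of the table, and the column that carries the number of the title was used. Read from the column of its description, this library did not stand apart (rho -0.09, Pearson correlations of 0.973 to 0.989). Comparisons with Sa of set 1 rest on it and on 1 other library, and calls in them are given with and without it. All libraries share 1 estimate of the spread, and leaving this library out also moved the calls of other comparisons. The cause of those moves was not tested. The depth behind the values is unknown, since only FPKM are used here. In these bulk samples, fewer enteroendocrine cells and less RNA per cell cannot be told apart.

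Gip was the most abundant of the 10 genes, with a mean of 87.0 FPKM ± 17.7 (SD, n = 23), and encodes the glucose-dependent insulinotropic peptide of K cells. Sct, the gene for secretin, which drives bicarbonate release, followed at 42.1 FPKM ± 8.64. Chgb (29.5 FPKM ± 5.84), Chga (27.9 FPKM ± 3.85) and Cck (25.8 FPKM ± 5.14), the gene of cholecystokinin, which empties the gallbladder and curbs feeding, came next and lay within 1 SD of each other. FPKM is a level per length, so these genes can be set beside each other.

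Gcg, from which intestinal cells make the glucagon-like peptides, had a mean of 20.5 FPKM ± 5.01, and Sst, the gene of the inhibitory hormone somatostatin, 16.3 FPKM ± 2.99. Nts (neurotensin, 11.3 FPKM ± 3.15) and Ghrl (ghrelin, which stimulates appetite, 10.6 FPKM ± 2.30) did not differ beyond their spread. Tph1, the enzyme that starts serotonin synthesis in enterochromaffin cells, was lowest at 2.41 FPKM ± 0.617. Every gene was detected in every library, and the ratio of the highest to the lowest library ran from 1.60 (Chga) to 2.66 (Nts).

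Group means were not ordered the same way in both sets. In set 1, A100-FMT had the lowest mean for 8 of the 10 genes, all but Sct and Nts, and A10-FMT the highest for 4. In set 2, Con-FMT had the highest mean for 8 of the 10, all but Chgb and Sct, and Sa the lowest for 5. The sum over the 10 genes was 229, 212 and 259 FPKM in the A100-FMT libraries of set 1 against 294, 303 and 319 FPKM in Con-FMT of that set. In set 2 it was 218, 273 and 257 FPKM in A100-FMT against 297, 303 and 330 FPKM in Con-FMT, so that A100-FMT lay below Con-FMT without overlap in both sets.

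**Figure D1:**
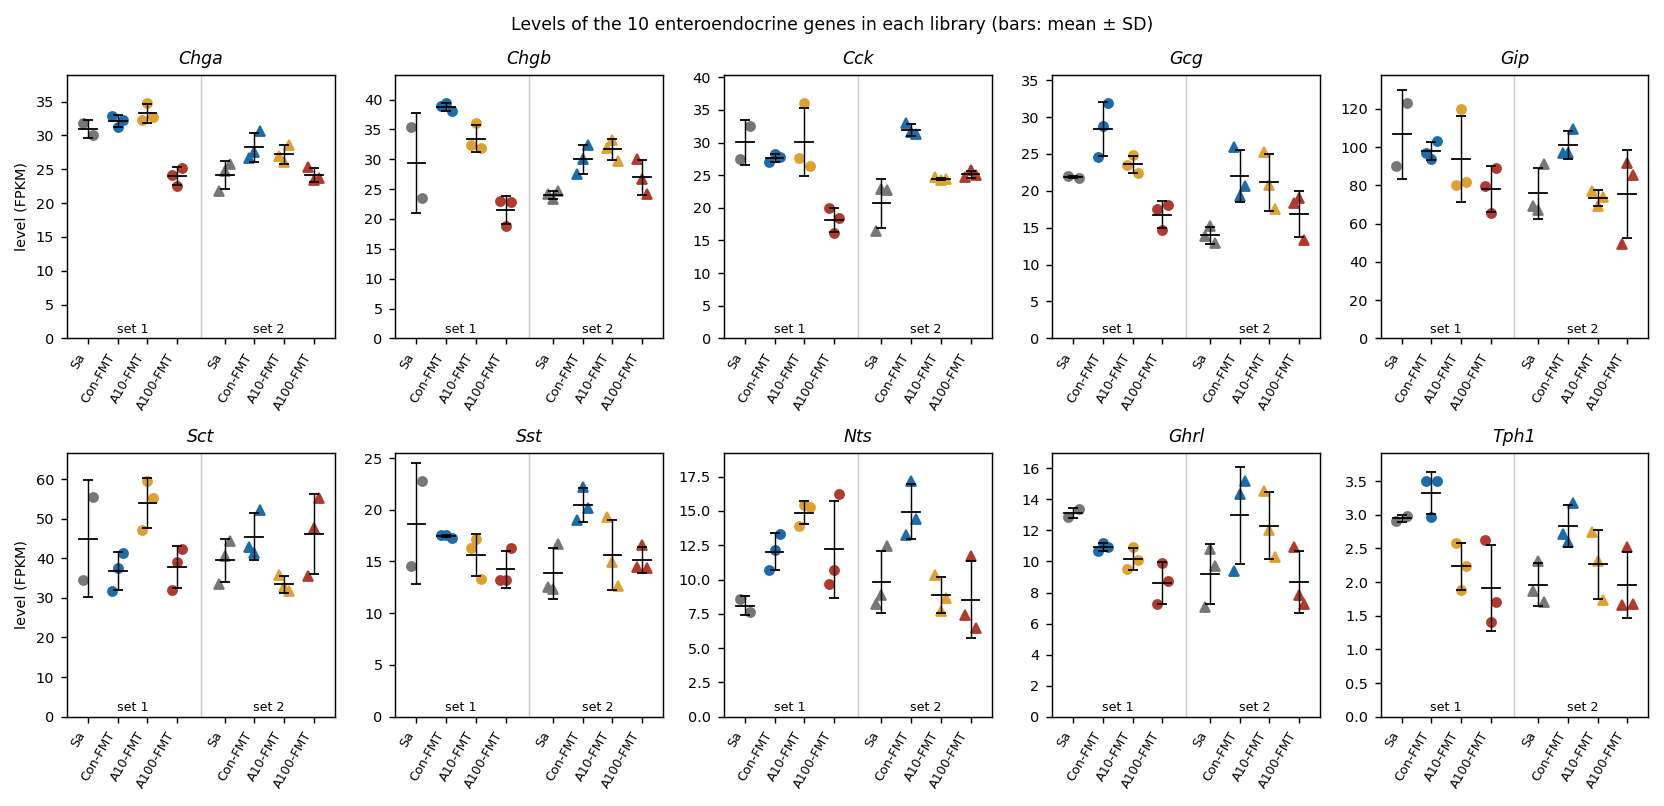
Level of each of the 10 genes (y axis, FPKM) in every library, by treatment and set (x axis; circles are set 1, triangles set 2); horizontal lines are group means and bars the SD, with 3 libraries a group and 2 in Sa of set 1. Chga, Chgb, Cck and Gcg of A100-FMT in set 1 sit below all Con-FMT libraries of that set, and Sct and Nts do not.

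A100-FMT vs. Con-FMT sets recipients of contents from donors on the high AOS dose beside recipients of contents from donors on water. Contents were pooled within each donor group, so the dose and the pool cannot be told apart. In set 1, 4 of the 10 genes passed as lower in A100-FMT and none as higher (limma, Benjamini-Hochberg adjusted p under 0.05). Of all 11337 genes tested 46 passed (0.406%), 24 of them lower (0.212%). The 4 were both chromogranin genes and the hormone genes Cck and Gcg. Over both sets the same 4 genes, and none other of the 10, passed, all as lower. In all 14 genes passed (0.123%), 11 of them lower (0.097%). By direction alone, 9 of the 10 were lower in set 1 and over both sets. In set 2 alone no gene of the whole table passed in limma (0%), and 8 of the 10 had an unadjusted p under 0.05, all in the lower direction, as did 1270 of all 11337 genes in either direction (11.2%). With replicate 3 of Sa set 1 left out, 2.59% of all genes passed in set 2, and of the 10 Nts alone did (limma adjusted p = 0.0478).

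Chga (NCBI Gene 12652, chromosome 12, 102554941 to 102565027 on GRCm38) measured 32.9, 31.3 and 32.2 FPKM in the Con-FMT libraries of set 1 and 24.1, 22.5 and 25.2 FPKM in A100-FMT. In set 2 it was 26.6, 27.5 and 30.6 FPKM against 25.3, 23.4 and 23.7 FPKM. All A100-FMT libraries were thus below all Con-FMT libraries in each set, with a wider gap in set 1. The log2 change of FPKM + 1 was -0.41 (SE 0.066, adjusted p from limma = 0.0103) in set 1, -0.22 (SE 0.066, adjusted p = 0.239) in set 2 and -0.31 (SE 0.047, adjusted p = 0.00865) over both sets.

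Chgb (NCBI Gene 12653, chromosome 2, 132781642 to 132795079), the other chromogranin gene, had the largest fall of the 10 in set 1. It measured 38.9, 39.5 and 38.1 FPKM in Con-FMT and 22.9, 18.8 and 22.9 FPKM in A100-FMT, a log2 change of -0.83 (SE 0.114, limma adjusted p = 0.00579). Set 2 gave 27.5, 30.0 and 32.4 FPKM against 30.1, 26.7 and 24.1 FPKM, groups that overlapped, with a log2 change of -0.15 (95% interval -0.39 to 0.09). Over both sets it was -0.49 (SE 0.081, limma adjusted p = 0.0169). The difference between the sets had an unadjusted p of 0.000554 in limma and an adjusted p of 0.143, so it did not pass.

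Cck (NCBI Gene 12424, chromosome 9, 121489824 to 121495694) measured 27.0, 28.2 and 27.7 FPKM in Con-FMT of set 1 and 19.9, 16.2 and 18.4 FPKM in A100-FMT. In set 2 the values were 33.0, 31.7 and 31.3 FPKM against 24.7, 25.7 and 25.04 FPKM. The groups overlapped in neither set, and within each of these groups of set 2 the libraries differed by less than 2 FPKM. The log2 change was -0.59 (SE 0.115, limma adjusted p = 0.0383) in set 1, -0.33 (SE 0.115, adjusted p = 0.295) in set 2 and -0.46 (SE 0.081, adjusted p = 0.0308) over both.

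Gcg (NCBI Gene 14526, chromosome 2, 62474530 to 62483653) measured 24.6, 28.7 and 31.9 FPKM in Con-FMT of set 1 against 17.5, 14.7 and 18.1 FPKM in A100-FMT. In set 2 it was 26.0, 19.3 and 20.7 FPKM against 18.4, 19.0 and 13.3 FPKM, again without overlap, although the nearest libraries of set 2 lay close together (19.3 and 19.0 FPKM). Its log2 change was -0.73 (SE 0.143, limma adjusted p = 0.0383) in set 1, -0.37 (SE 0.143, adjusted p = 0.342) in set 2 and -0.55 (SE 0.101, adjusted p = 0.0419) over both sets.

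The other genes did not pass. Tph1 (NCBI Gene 21990) came closest over both sets, with a log2 change of -0.49 (SE 0.107, limma adjusted p = 0.0799). It measured 3.50, 2.96 and 3.50 FPKM in Con-FMT of set 1 against 2.63, 1.40 and 1.71 FPKM in A100-FMT, and no A100-FMT library reached the lowest Con-FMT library in either set. The groups were also apart in both sets for Sst (log2 changes of -0.28 and -0.41 in sets 1 and 2) and Gip (-0.33 and -0.46), and in set 1 for Ghrl (-0.32, and -0.52 in set 2).

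Sct and Nts stood out from this order. Sct had log2 changes of 0.04 (95% interval -0.33 to 0.40) and 0.01 (95% interval -0.36 to 0.37). Nts was level in set 1 (-0.01, 95% interval -0.42 to 0.40) and had a lower mean in set 2 without overlap (-0.78, limma adjusted p = 0.169, or 0.0478 with replicate 3 of Sa set 1 left out). For neither gene does the missed threshold show that the groups were alike.

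Counted over libraries rather than by the test, 8 of the 10 genes in set 1 had every A100-FMT library below every Con-FMT library (10.2% of all genes tested did), and 7 of 10 in set 2 (6.49% of all genes). None had the reverse pattern, which 11.5% of all genes showed in set 1 and 16.1% in set 2. As a median, the 10 genes changed by -0.37 in set 1 and by -0.38 in set 2 on the log2 scale, beside medians of 0.00054 and 0.043 over all genes tested.

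**Figure D2:**
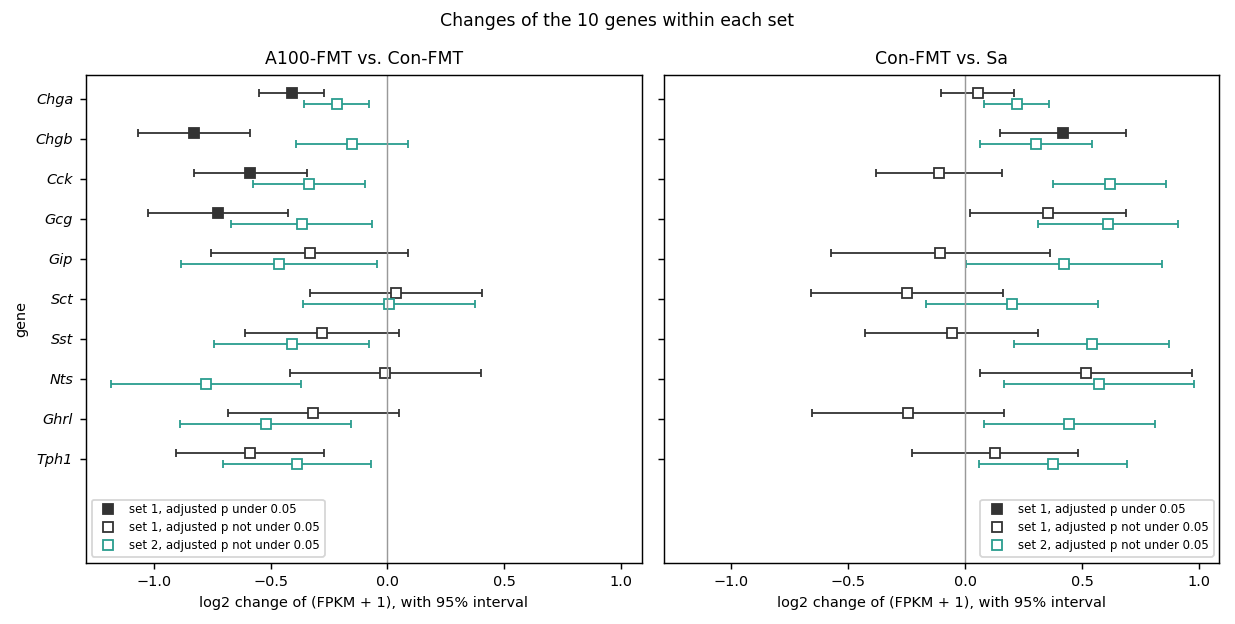
Change of each gene (y axis) on the log2 scale of FPKM + 1 (x axis) for A100-FMT vs. Con-FMT and for Con-FMT vs. Sa, in set 1 (black) and set 2 (green), with 95% intervals from limma; filled squares passed an adjusted p of 0.05. In the left panel 4 genes of set 1 are filled, from -0.41 (Chga) to -0.83 (Chgb), and no gene of set 2 is; in the right panel all 10 changes of set 2 are above 0 without any passing.

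The calls in set 1 depended on single libraries, and the sizes less so. Apart from the fit without Sa replicate 3, the share of all genes in the fits below is not given. The counts thus do not show whether the 10 genes were less stable than the rest. With a smooth trend on GC content and length removed from each library, Chgb and Gcg passed in set 1 (limma adjusted p = 0.0188 and 0.0297) while Chga (0.0646) and Cck (0.0723) did not, and Cck and Gcg passed over both sets. With the 6 libraries of set 1 fitted alone none of the 4 passed (limma adjusted p from 0.0579 to 0.0811). Leaving out A100-FMT replicate 2 of set 1 left no gene of the 10 called, leaving out Con-FMT replicate 1 or replicate 2 of set 1 left 1, and leaving out Con-FMT replicate 3 or A100-FMT replicate 3 of set 1, or replicate 2 of Sa, Con-FMT or A10-FMT in set 2, left 2. Across all 23 omissions the log2 change stayed between -0.45 and -0.37 for Chga, -0.88 and -0.74 for Chgb, -0.65 and -0.51 for Cck and -0.82 and -0.64 for Gcg. Over both sets Chga passed under all 23 omissions, Chgb under 17, Cck under 14 and Gcg under 7. With Sa replicate 3 of set 1 left out, the same 4 genes were called in set 1 among 176 in all (1.55%), and over both sets these and Tph1 (limma adjusted p = 0.0371) among 191 (1.68%).

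The stretches upstream of these 4 genes are shown because the genes were lower together. Each line gives the 250 bases before the transcription start of RefSeq (GRCm38.p6), 5′ to 3′ on the strand of the gene, at chr12:102554691-102554940 (plus strand) for Chga, chr2:132781392-132781641 (plus) for Chgb, chr9:121495695-121495944 (minus) for Cck and chr2:62483654-62483903 (minus) for Gcg. Capitals mark matches, on either strand, to TGACG (the core of the cyclic AMP response element, counted also within the full TGACGTCA), to the E-box CANNTG, which basic helix-loop-helix factors such as Neurod1 can bind, and to the TATA box TATAAA.
Chga: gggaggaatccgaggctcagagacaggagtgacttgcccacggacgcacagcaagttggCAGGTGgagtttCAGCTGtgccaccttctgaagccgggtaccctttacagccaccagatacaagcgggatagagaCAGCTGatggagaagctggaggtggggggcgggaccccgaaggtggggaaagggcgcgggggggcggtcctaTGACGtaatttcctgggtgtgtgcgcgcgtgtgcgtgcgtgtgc
Chgb: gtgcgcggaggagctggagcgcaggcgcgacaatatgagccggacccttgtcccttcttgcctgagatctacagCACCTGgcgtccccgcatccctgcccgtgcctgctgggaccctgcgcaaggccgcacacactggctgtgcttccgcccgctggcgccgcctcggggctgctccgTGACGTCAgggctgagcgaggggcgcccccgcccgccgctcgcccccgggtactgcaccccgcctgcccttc
Cck: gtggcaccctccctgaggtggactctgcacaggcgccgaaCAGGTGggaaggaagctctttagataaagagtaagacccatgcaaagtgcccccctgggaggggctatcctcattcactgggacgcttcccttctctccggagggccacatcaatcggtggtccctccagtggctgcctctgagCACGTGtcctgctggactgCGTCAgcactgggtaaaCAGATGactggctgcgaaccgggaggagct
Gcg: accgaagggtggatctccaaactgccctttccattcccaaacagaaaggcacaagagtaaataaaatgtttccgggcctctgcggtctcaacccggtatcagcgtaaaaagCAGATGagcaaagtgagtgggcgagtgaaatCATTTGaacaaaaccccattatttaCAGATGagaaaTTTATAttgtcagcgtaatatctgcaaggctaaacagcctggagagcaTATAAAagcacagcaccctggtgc

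The full element TGACGTCA was found once upstream of Chgb, starting at -72 from the transcription start, and not in the other 3 windows; 1.55% of the 32851 promoter windows of this length hold it, among them that of Sst (at -48). Upstream of Chga the core TGACG matched at -44 and upstream of Cck, on the opposite strand, at -47. Of all windows 17.8% hold a match. Among the hormone genes not shown, the core also matched upstream of Sst, Nts and Tph1, and not of Gip, Sct and Ghrl. Gcg had no match to it, and had TATAAA at -24 and, on the opposite strand, at -72 (12.4% of all windows hold a match). An E-box was present in all 4 windows, as it is in 66.2% of all windows, and no other of these motifs was in all 4. A match is a description of the sequence, not a binding site.

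Con-FMT vs. Sa sets pooled contents of donors given water beside saline, both after busulfan. Donor contents were frozen in glycerol, which the paper does not name for the saline of Sa. In set 2 all 10 genes had a higher mean in Con-FMT, and 8 of the 10 had every Con-FMT library above every Sa library (6.3% of all genes tested did), the exceptions being Sct and Ghrl. None passed in limma (4 of 11337 genes did, 0.0353%), while 9 of the 10 had an unadjusted p under 0.05, as did 651 of all genes (5.74%). With replicate 3 of Sa set 1 left out, Cck passed (limma adjusted p = 0.0344), among 0.132% of all genes. Cck measured 33.0, 31.7 and 31.3 FPKM in Con-FMT and 16.4, 22.9 and 22.8 FPKM in Sa, with a log2 change of 0.62 (SE 0.115, limma adjusted p = 0.0767). Gcg measured 26.0, 19.3 and 20.7 FPKM against 13.8, 15.2 and 12.9 FPKM, a log2 change of 0.61 (SE 0.143, limma adjusted p = 0.145). The median of the 10 log2 changes was 0.43, beside -0.014 over all genes.

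In set 1 the same comparison gave 5 genes with a higher mean and 5 with a lower mean, a split that rested on the library that stood apart. With GC content and length adjusted 8 of the 10 were higher, as they were with the column of its description, and without it 9 were. Only Chgb passed (0.42, SE 0.128, limma adjusted p = 0.0301), in a comparison where 26.9% of all genes did (17.7% in the higher direction). Its Sa libraries measured 35.3 and 23.4 FPKM, the latter being the library that stood apart, against 38.9, 39.5 and 38.1 FPKM in Con-FMT. Without that library the change was 0.13 (limma adjusted p = 0.856), and no gene of the 10 was called, as with the column its description names in its place. Of all genes 0.00881% passed without it. Of the 10 genes, 3 had all Con-FMT libraries above both Sa libraries (18.8% of all genes) and 1 had them all below (13.5%).

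Over both sets, Gcg was the only gene of the 10 to pass in Con-FMT vs. Sa (0.48, SE 0.107, limma adjusted p = 0.0440). By direction alone, 9 of the 10 were higher. Of 11337 genes 85 passed (0.75%), 76 of them higher (0.67%). Nts had a like size (0.54, SE 0.145) and an adjusted p of 0.0955 in limma. Without replicate 3 of Sa set 1 the change of Gcg was 0.48 with an adjusted p of 0.181 in limma (0.352% of all genes passed), and it passed under 8 of the 23 omissions of 1 library.

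A100-FMT vs. Sa shares its libraries with both comparisons above. In set 1, 5 of the 10 genes passed as lower in A100-FMT, namely Chga (-0.36), Chgb (-0.41), Cck (-0.70), Ghrl (-0.56) and Tph1 (-0.46). Of all genes tested 35.2% passed in either direction and 13.1% in the lower. Cck measured 27.6 and 32.5 FPKM in Sa and 19.9, 16.2 and 18.4 FPKM in A100-FMT. When replicate 3 of Sa set 1 was left out, Chgb alone passed (-0.70, limma adjusted p = 0.0204), where 0.238% of all genes did, and the other 4 changes were between -0.58 and -0.40, while 3 of the 10 passed with the column its description names in its place. Chgb hung on which of the Sa libraries was kept, its change being -0.12 without replicate 1 (limma adjusted p = 0.376). The count of 3 with the column of the description stands without the share of all genes in that fit. With GC content and length adjusted Tph1 alone passed (-0.62), and the changes of Chga (-0.10), Chgb (-0.24), Cck (-0.34) and Ghrl (-0.29) were smaller and did not. In set 2 none of the 10 genes passed in limma (0.0353% of all genes did) and 1 had an unadjusted p under 0.05 (14.2% of all genes), which was Cck with a log2 change of 0.28.

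The effect of A100-FMT vs. Sa differed between the sets for 4 of the 10 genes by the interaction term of limma, where 26.8% of all genes did (13.3% with a difference above 0). Cck differed by 0.98 (SE 0.172, adjusted p = 0.00588), Gcg by 0.61 (SE 0.214, adjusted p = 0.0432), Chgb by 0.56 (SE 0.171, adjusted p = 0.0265) and Chga by 0.36 (SE 0.0997, adjusted p = 0.0191). In a fit without replicate 3 of Sa set 1, the differences of Cck (0.86) and Chgb (0.85) passed and those of Chga (0.40) and Gcg (0.62) did not, where 4.09% of all genes passed. Without replicate 1 of that group, the difference of Chgb was 0.28 (limma adjusted p = 0.110). With GC content and length adjusted Cck passed (0.54, limma adjusted p = 0.0497), while Chga (0.08), Chgb (0.39) and Gcg (0.52) did not. Within Sa, Chga measured 31.8 and 30.0 FPKM in set 1 and 21.8, 24.8 and 25.8 FPKM in set 2, while Chgb overlapped (35.3 and 23.4 FPKM against 24.3, 23.3 and 24.6 FPKM). For A100-FMT vs. Con-FMT no difference between the sets passed for the 10 genes in limma (0% of all genes did), and 2 of the 10, Chgb and Nts, had an unadjusted p under 0.05, as did 13.1% of all genes. Without replicate 3 of Sa set 1, 2.11% of all genes passed for this difference, and Chgb did (0.68, limma adjusted p = 0.0209). For Con-FMT vs. Sa none of the 10 passed either (0.00882% of all genes), with 3 at an unadjusted p under 0.05 in limma, near the 34.3% of all genes.

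A10-FMT came from donors on the lower AOS dose. In A10-FMT vs. Con-FMT of set 1 only Sct passed among the 10 genes (0.54, SE 0.175, limma adjusted p = 0.0424), as did 16.7% of all genes tested (5.2% in the higher direction). When replicate 3 of Sa set 1, which is not in this comparison, was left out of the fit, 32.8% of all genes passed, and Tph1 (-0.42, limma adjusted p = 0.0445) as well as Sct. The call of Sct held under 14 of the 23 omissions of 1 library and was lost with no filter (limma adjusted p = 0.0735). Sct (NCBI Gene 20287, chromosome 7, 141278329 to 141279174) measured 47.2, 59.5 and 55.1 FPKM in A10-FMT against 31.7, 37.6 and 41.3 FPKM in Con-FMT, without overlap. In set 2 the order was the reverse, with 35.8, 32.8 and 31.7 FPKM in A10-FMT against 42.8, 41.4 and 52.2 FPKM in Con-FMT, again without overlap (-0.43, limma adjusted p = 0.330). The difference between the sets was -0.97 (SE 0.248, limma adjusted p = 0.0113), in a contrast that 20.8% of all genes passed (6.7% with a difference below 0).

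Nts (NCBI Gene 67405, chromosome 10, 102481756 to 102490418), which in the gut is made mainly by cells of the distal small intestine, also had its highest group mean of set 1 in A10-FMT and lay lower in A10-FMT than in Con-FMT in set 2. It measured 13.9, 15.4 and 15.3 FPKM in A10-FMT of set 1, against 10.7, 12.1 and 13.3 FPKM in Con-FMT and 8.57 and 7.62 FPKM in Sa. In set 2 the values were 10.3, 7.69 and 8.64 FPKM in A10-FMT, 13.3, 17.2 and 14.4 FPKM in Con-FMT and 8.21, 8.84 and 12.4 FPKM in Sa. The A10-FMT libraries of set 1 were thus above all others of that set apart from 1 of A100-FMT (16.2 FPKM), and those of set 2 below all Con-FMT libraries.

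Nts rose in A10-FMT vs. Sa of set 1 (0.80, SE 0.216, limma adjusted p = 0.0107), where 32% of all genes tested passed (13.6% in the higher direction). Without replicate 3 of Sa set 1 this change was 0.73 with an adjusted p of 0.109 in limma, where 8.12% of all genes passed, and with GC content and length adjusted it was 0.58 (adjusted p = 0.0518). The effect differed between the sets by -0.92 (limma adjusted p = 0.0246) against Sa, where 28.4% of all genes passed, and by -0.98 (limma adjusted p = 0.0179) against Con-FMT. Without that library the first of these was -0.85 with an adjusted p of 0.0881, and the other passed. With GC content and length adjusted the first was -0.68 (limma adjusted p = 0.0824) and the other passed. In the first contrast Chgb (0.46) and Sct (-0.85) passed in its absence, with 20.4% of all genes.

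Among the remaining genes, Cck differed between the sets in A10-FMT vs. Con-FMT (-0.48, limma adjusted p = 0.0437), being 27.7, 36.1 and 26.4 FPKM in A10-FMT of set 1 and 24.7, 24.3 and 24.4 FPKM in set 2. This call of Cck held under 9 of the 23 omissions of 1 library and was lost with GC content and length adjusted (limma adjusted p = 0.103). Ghrl differed between the sets in A10-FMT vs. Sa (0.73, limma adjusted p = 0.0447), with 12.9 and 13.4 FPKM in Sa of set 1 and 7.08, 10.8 and 9.71 FPKM in Sa of set 2. Without replicate 3 of Sa set 1 the difference of Ghrl was 0.71 with an adjusted p of 0.116 in limma, and with GC content and length adjusted it was 0.49 (adjusted p = 0.159). Tph1 had a lower mean in A10-FMT than in Con-FMT over both sets (-0.33, limma adjusted p = 0.683).

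Within set 2 none of the 10 genes passed in limma in A10-FMT vs. Sa (0.423% of all genes did) or vs. Con-FMT (0.379%), and 5 had an unadjusted p under 0.05 in each, beside 14.4% and 11.9% of all genes. In a fit without replicate 3 of Sa set 1, Chgb (0.38) and Gcg (0.55) rose in A10-FMT vs. Sa of set 2 (limma adjusted p = 0.0249 and 0.0471), where 3.43% of all genes passed. Over both sets none passed in limma in A10-FMT vs. Sa (0.132%), in A10-FMT vs. Con-FMT (0%) or in A100-FMT vs. Sa (0.891%), with 4, 2 and 3 genes at an unadjusted p under 0.05, beside 19.9%, 6.15% and 26.3% of all genes.

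Averaged over the 4 treatments, all 10 genes had a lower mean in set 2 than in set 1. With GC content and length adjusted, however, 4 of the 10 had a higher one, and with array quality weights 1 did. For the library that stood apart, the column of its description gave 3 higher, and leaving that library out gave 2. Chga (-0.20, limma adjusted p = 0.00916) and Gcg (-0.28, limma adjusted p = 0.0267) passed, and 13.3% of all genes did (2.62% in the lower direction). Chga was at -0.10 with GC content and length adjusted (limma adjusted p = 0.164). With array quality weights neither Chga nor Gcg passed (limma adjusted p = 0.0877 and 0.224). Day, cohort and preparation cannot be told apart from the sets here.

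Transcription factors of the lineage were taken as a list of 17, of which 8 were tested. In A100-FMT vs. Con-FMT of set 1 only Insm1, a zinc finger factor of endocrine differentiation, passed among them (-0.38, SE 0.072, limma adjusted p = 0.0368). Neurod1, which acts after Neurog3, changed by -0.26 on the log2 scale (adjusted p = 0.382 in limma) and Neurog3, the factor that starts the lineage, by 0.04 (adjusted p = 0.960). In set 2 the value of Insm1 was 0.05 and the median of the 8 was 0.04, beside -0.08 in set 1. The most abundant of the list, Atoh1 (13.0 FPKM), which all secretory cells need, and the forkhead factors Foxa1 (8.31 FPKM) and Foxa2 (2.52 FPKM), had log2 differences between -0.08 and 0.10 in both sets.

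Insm1 was also lower in set 1 against Sa, by a log2 change of -0.59 in A100-FMT and -0.41 in A10-FMT (limma adjusted p = 0.00205 and 0.00206, where 35.2% and 32% of all genes passed), and over both sets in A100-FMT vs. Sa (-0.24, adjusted p = 0.0401). Neurog3 fell in A10-FMT vs. Sa of set 1 (-0.45, limma adjusted p = 0.0195) and Neurod1 rose in Con-FMT vs. Sa of set 1 (0.38, limma adjusted p = 0.0364), where 32% and 26.9% of all genes passed. The effect of A10-FMT vs. Sa differed between the sets for Neurog3 (0.72), Nkx2-2 (0.67), Fev (0.65) and Insm1 (0.51), 4 of 8 where 28.4% of all genes passed, and that of A100-FMT vs. Sa for Insm1 (0.70), where 26.8% did. All of these rest on the Sa libraries of set 1. Without replicate 3 of that group the calls of Insm1 within set 1 (-0.68 and -0.49) and between the sets (0.60 vs. Sa for A10-FMT and 0.79 for A100-FMT) held, and that over both sets did not (-0.29, limma adjusted p = 0.0787). Those of Neurog3 (-0.28, and 0.55 between the sets), Neurod1 (0.20) and Fev (0.55) did not hold, and Nkx2-2 was then below the filter.

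For granules and prohormone processing 6 of 18 listed genes were tested, and none passed in A100-FMT vs. Con-FMT. All 6 had a lower mean in A100-FMT in set 1 (median log2 difference -0.28) and in set 2 (median -0.14). Cpe, a carboxypeptidase that trims prohormones (3.23 FPKM), had log2 differences of -0.50 and -0.28 in sets 1 and 2 (limma adjusted p = 0.172 and 0.494). Ptprn2, a protein of the granule membrane and the most abundant of the list (6.57 FPKM), had -0.35 and -0.01, and Pam, which amidates peptides (2.80 FPKM), -0.15 and -0.09. The only call in any comparison was Ptprn2, whose effect of A10-FMT vs. Con-FMT differed between the sets (0.46, limma adjusted p = 0.0226). Of all genes 20.8% passed this contrast.

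Of 8 other gut hormone genes 3 were tested and none was called in any comparison with all libraries in the fit. Pyy, the peptide YY gene of distal L cells (22.2 FPKM), had log2 differences of 0.06 and -0.20 in A100-FMT vs. Con-FMT of sets 1 and 2. Tac1, the gene of substance P (9.85 FPKM), had -0.32 and -0.24, and Nucb2 (8.91 FPKM), the precursor of nesfatin, -0.58 and -0.27, the former with a limma adjusted p of 0.104, or 0.00604 with replicate 3 of Sa set 1 left out. The other 5 hormone genes of that list were below the filter.

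**Figure D3:**
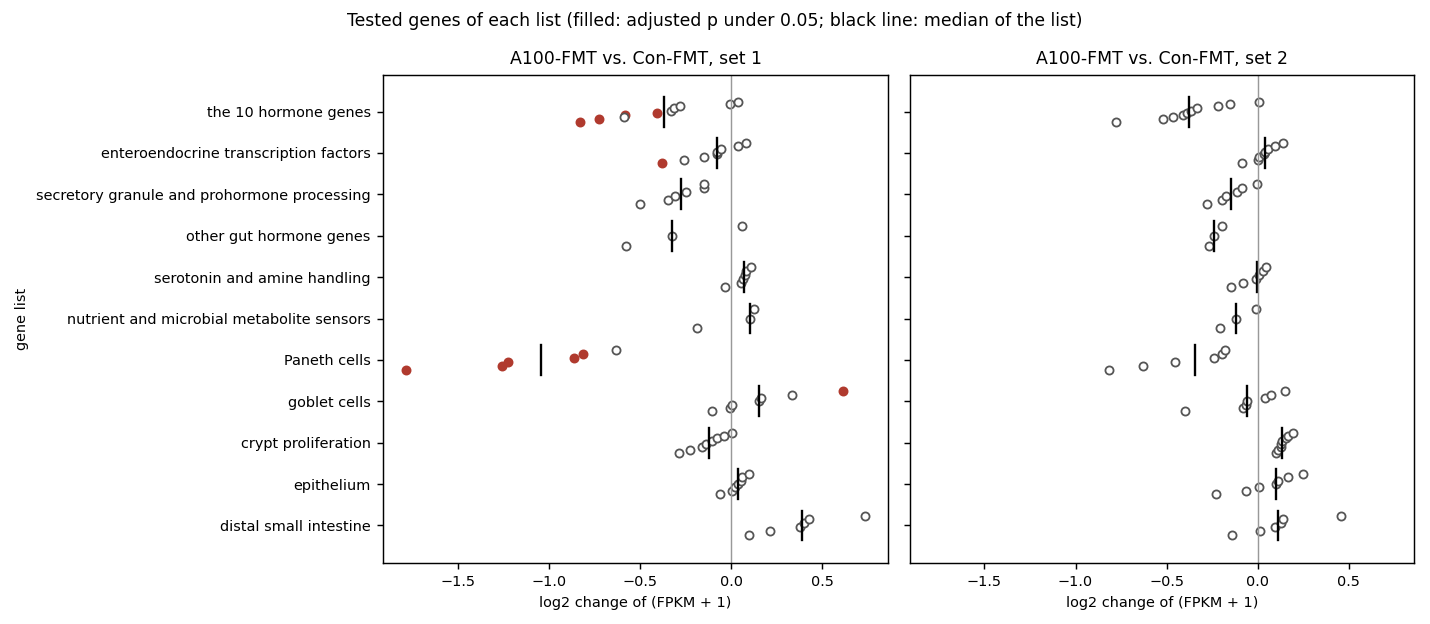
Log2 change of FPKM + 1 (x axis) in A100-FMT vs. Con-FMT of set 1 and set 2 for each tested gene of the listed groups (y axis); filled points passed an adjusted p of 0.05 in limma and black lines are list medians. The median of the 10 hormone genes is -0.37 in set 1 and -0.38 in set 2, that of the Paneth cell markers -1.04 and -0.35, and that of the goblet cell markers 0.15 and -0.06.

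Genes that handle serotonin and other amines numbered 10, of which 6 were tested. In A100-FMT vs. Con-FMT none was called, and 5 of the 6 had a higher mean in A100-FMT in set 1 (median 0.07) and 3 in set 2. Maoa (168 FPKM), which breaks down serotonin, was the most abundant, followed by Ddc (91.0 FPKM), which completes its synthesis, and the serotonin transporter Slc6a4 (46.4 FPKM). In A10-FMT vs. Con-FMT of set 1 Maoa (0.42), Maob (0.46) and Gch1 (0.38), an enzyme of cofactor synthesis, rose, 3 of 6 where 16.7% of all genes passed, and against Sa of set 1 Maoa (0.50), Maob (0.53) and Ddc (0.39) did, where 32% passed. None of the latter 3 passed without replicate 3 of Sa set 1 (0.30, 0.24 and 0.10). In set 2 Slc6a4 fell in A10-FMT vs. Sa (-0.28, limma adjusted p = 0.0325).

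Between the sets, the effect of A10-FMT differed for Maoa and Maob against both controls, by -0.78 and -0.96 vs. Sa and by -0.61 and -0.60 vs. Con-FMT, and for Ddc against Sa (-0.56), where 28.4% of all genes passed vs. Sa and 20.8% vs. Con-FMT. The effect on Slc6a4 differed as well, by -0.35 in A10-FMT vs. Sa, -0.23 in A100-FMT vs. Sa (26.8% of all genes passed) and -0.33 in A10-FMT vs. Con-FMT, and its log2 level was lower in set 2 (-0.10, limma adjusted p = 0.0305). Without replicate 3 of Sa set 1, the differences vs. Sa were -0.57 for Maoa, -0.67 for Maob and -0.33 for Slc6a4 in A10-FMT, which passed, and -0.27 for Ddc and -0.21 for Slc6a4 in A100-FMT, which did not.

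Sensors of nutrients and microbial products gave 3 tested genes of 13. Lpar5 (18.6 FPKM), a lysophosphatidic acid receptor, fell in A100-FMT vs. Sa of set 1 (-0.24, limma adjusted p = 0.0220), a call lost without replicate 3 of Sa set 1 (-0.20, adjusted p = 0.368). With all libraries in the fit, 35.2% of all genes passed in A100-FMT vs. Sa of set 1, 13.1% in the lower direction. The fatty acid receptors Ffar4 (4.99 FPKM) and Ffar2 (2.46 FPKM), which senses short-chain fatty acids, were called in no comparison.

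Receptors and peptidases for these hormones gave 2 tested genes of 21, both peptidases. Dpp4 (67.7 FPKM), which inactivates glucagon-like peptide and the Gip peptide, rose vs. Sa of set 1 in Con-FMT (0.73), A10-FMT (1.15) and A100-FMT (0.90), and Mme (35.3 FPKM), neprilysin, in A10-FMT (1.34) and A100-FMT (0.84), where 26.9%, 32% and 35.2% of all genes passed in these 3 comparisons. The effects vs. Sa differed between the sets by -1.84 (A10-FMT) and -1.37 (A100-FMT) for Dpp4 and by -2.16 and -1.39 for Mme, and that of A10-FMT vs. Con-FMT by -0.96 and -1.34, contrasts that 28.4%, 26.8% and 20.8% of all genes passed. When replicate 3 of Sa set 1 was left out, the change of Dpp4 vs. Sa was 0.17 for Con-FMT, 0.60 for A10-FMT and 0.35 for A100-FMT and that of Mme 0.44 for A10-FMT and -0.05 for A100-FMT, and of these Dpp4 in A10-FMT alone passed (limma adjusted p = 0.0197). The differences vs. Sa were then -1.28 and -0.81 for Dpp4 and -1.26 and -0.49 for Mme, the last of which did not pass (limma adjusted p = 0.215). The most abundant receptor gene was Htr4 (0.61 FPKM), a serotonin receptor, and Cckar, Cckbr, Htr3a, Ntsr1, Sstr4 and the sensor Piezo2 were not analysed here.

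Markers of another crypt cell moved with the hormone genes. Paneth cells are the granule-filled defence cells at the crypt base, and all 6 of their listed markers had a lower mean in A100-FMT than in Con-FMT in set 1 (median log2 difference -1.04). Of these 5 passed in limma, namely Ang4 (-1.78), Lyz1 (-1.26), Itln1 (-1.22), Defa24 (-0.86) and Defa17 (-0.81), beside 0.212% of all genes in the lower direction. In set 2 all 6 had a lower mean (median -0.35) and none passed, and over both sets Ang4 (-1.21) and Itln1 (-0.71) did. Defa24, the most abundant (5227 FPKM), and Defa17 belong to a family of near-identical defensin genes, among which counted reads can be split, and their values are uncertain.

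The summed level of the 6 markers was 10761, 8563 and 7244 FPKM in A100-FMT of set 1 against 17635, 20225 and 15253 FPKM in Con-FMT. In set 2 it was 11456, 9289 and 9277 FPKM against 12053, 11635 and 12744 FPKM, and 9814, 8419 and 6388 FPKM in Sa. The A100-FMT libraries thus lay below those of Con-FMT in each set for this sum, as they did for the sum of the hormone genes. In Con-FMT vs. Sa of set 2, where all 10 hormone genes had a higher mean, all 6 markers did too (median 0.61), and 5 of the 6 did not overlap, as 6.3% of all genes did in that direction. In A10-FMT of set 2 the Paneth sum was 17230, 17322 and 12036 FPKM, with a group mean above that of Con-FMT, while the sum of the hormone genes (269, 243 and 239 FPKM) lay below Con-FMT. The part of the Paneth markers in the results on the hormone genes was not tested.

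**Figure D4:**
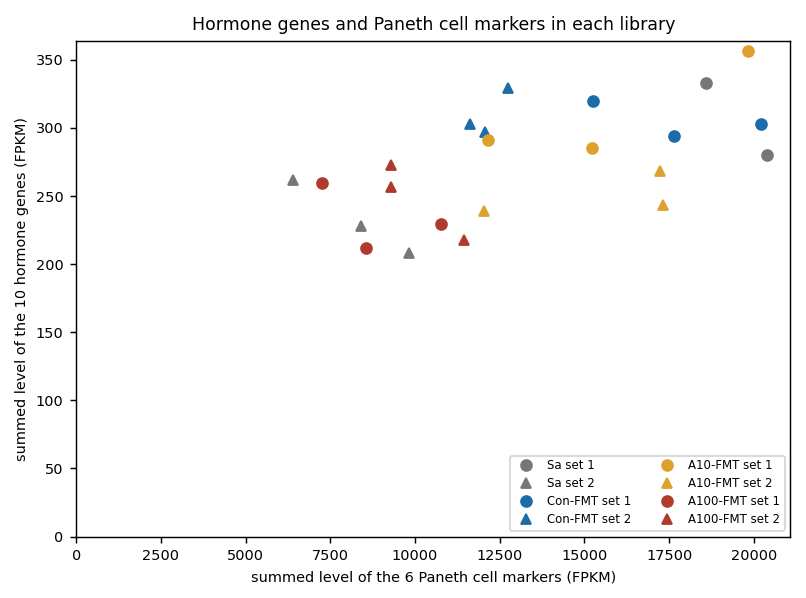
Summed level of the 10 hormone genes (y axis, FPKM) against that of the 6 Paneth cell markers (x axis, FPKM), 1 point a library, coloured by treatment with circles for set 1 and triangles for set 2. The A100-FMT libraries and Sa of set 2 lie at 6388 to 11456 FPKM on the x axis and 209 to 273 FPKM on the y axis, and Con-FMT of both sets at 11635 to 20225 and 294 to 330 FPKM.

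Goblet cell markers, also of the secretory lineage, had median log2 differences of 0.15 and -0.06 in A100-FMT vs. Con-FMT of sets 1 and 2, and of the 7 Muc2, the main mucin gene, named after its values were seen, rose in set 1 (0.61, limma adjusted p = 0.0272). Their most abundant gene was Zg16 (3001 FPKM). The 7 epithelial markers had medians of 0.04 and 0.10 with none called, and the 8 genes of dividing crypt cells, led by Pcna (156 FPKM), -0.12 and 0.13 with none called. Trpm5 (1.21 FPKM) was the most abundant tuft cell gene, and the other genes of its list were below the filter.

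Markers of position along the gut were compared as well. The 6 tested distal markers had a higher mean in A100-FMT than in Con-FMT of set 1 (median log2 difference 0.39, none called), and a lower mean in Con-FMT than in Sa of set 2 (median -0.31, none called). The sum of all 7 listed distal markers was 964 FPKM in Con-FMT of set 1 (907 to 1071) and 1254 FPKM in A100-FMT (1158 to 1433). It was 1551 FPKM in A10-FMT (1341 to 1710), where 4 of the 10 genes (Chga, Cck, Sct and Nts) had their highest group means of that set. In set 2 the sum was 1276 FPKM in Sa, 1018 FPKM in Con-FMT, 844 FPKM in A10-FMT and 1242 FPKM in A100-FMT. There 8 of the 10 genes, Nts, Chga and Cck among them, had their highest group mean in Con-FMT. The sum of the proximal markers was 87.1 FPKM in Con-FMT of set 1 (85.7 to 89.3) and 91.7 FPKM in A100-FMT (83.3 to 98.6), with overlap. Whether the sampled position had a part in the differences of the hormone genes was not tested.

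The gastric marker Cblif fell in A100-FMT vs. Con-FMT of set 1 (-1.43, limma adjusted p = 0.038). Pdx1, a factor of the duodenum and of pancreatic islets (7.31 FPKM), rose in A10-FMT vs. Con-FMT of set 1 (0.94, limma adjusted p = 0.00496). Of all genes 16.7% passed in A10-FMT vs. Con-FMT of set 1. Kit, taken from the mast cell list, fell in the same comparison (-0.35, limma adjusted p = 0.0275). The summed level of that list had a higher mean in A10-FMT (4.91, 7.24 and 8.31 FPKM) than in Con-FMT (3.86, 3.8 and 6.29 FPKM), with overlap. The duodenal gland gene Tff2 had a mean of 0.114 FPKM.

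The 10 genes varied together to a moderate degree. Over the 23 libraries, which share set and treatment, the 45 pairs had a median Pearson r of 0.47 on the log2 scale (-0.085 to 0.79), with 43 pairs positive and Chga and Chgb the closest. Within groups the median was 0.20 (-0.49 to 0.71), with 35 positive.

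Among all genes tested, those most like each hormone gene over the 23 libraries were found by Pearson's r. Chga was most like Pla2g2f, a secreted phospholipase (0.85), and Bhlha15, a factor of secretory cells (0.81), and Chgb most like Cd24a (0.85) and Nucb2 (0.85). Gcg was most like the defensin genes Defa39 (0.84) and Defa5 (0.84), Cck like Defa35 (0.69) and Wars (0.69), and Tph1 like Defa39 (0.73) and Fam174b (0.70), where the defensins carry the uncertainty given above. Sct went with Crip1 (0.89) and Klc4 (0.84), and Nts with B2m (0.82), which pairs with MHC class I, and Zbp1 (0.81), an interferon-induced sensor. Gip (Uqcrc1, 0.68, and Rnf114, 0.66), Sst (Ifitm3, 0.72, and Praf2, 0.70) and Ghrl (Lbh, 0.72, and Defa29, 0.66) had looser partners. With replicate 3 of Sa set 1 left out, the value for Gip and Rnf114 was 0.58.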

How the data were processed

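Small intestinal RNA was isolated by the authors with TRIzol and sequenced on an Illumina HiSeq instrument. The authors deposited 1 table of FPKM values per gene and library. Their methods describe RPKM made from the read number of a gene, and use DEGseq to call genes. The submitters' processing notes name the build mm10. The aligner and the counter are not given in the sources used here, and the depth is unknown. FPKM summed to 556465.66 to 667957.2 per library, so that values are comparable only as far as this scaling holds. For Sa replicate 3 of set 1 the column matching the title was read.

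Of the 19215 entries 11337 were tested, with a filter of 1 FPKM on the mean of the 23 libraries that left out 7878. Symbols came from RefSeq (GRCm38.p6) for 17725 of 17842 NCBI Gene numbers. Values were analysed as log2(FPKM + 1), so that a fold change of a low gene is understated, with limma 3.58.1 in R 4.3.3 (1 mean per group, all 23 libraries, empirical Bayes with trend) and Benjamini-Hochberg adjustment over all genes tested, threshold 0.05. FMT groups were compared with Sa and the AOS groups with Con-FMT, within sets, over both sets (mean of the set contrasts) and between sets (interaction). Intervals cover 95%. Tables and plots were made with pandas 2.3.3, numpy 2.4.6, scipy 1.17.1 and matplotlib 3.10.9 in Python 3.11.15. On simulated data with 200 of 11337 genes changed by a log2 value of 1, 91.8% were recovered for A100-FMT vs. Con-FMT in set 1 and 91.3% for Con-FMT vs. Sa in set 2, and 4.95% and 4.99% of calls were false (5 simulations each).

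The genes and lists were chosen with earlier results of these data known, so no pattern here is independent support. Named were all 10 hormone genes, the called genes and the 3 most abundant genes of each other pathway list, the most abundant gene of each marker list with any at 0 in every library, and the 2 genes most like each hormone gene; other marker genes were named after their values were seen. Alternatives were a pseudocount of 0.1, no filter, quantile normalization, trimmed-mean scaling, a replicate block, array quality weights, the column named in the description of Sa replicate 3, removal of a smooth trend on GC content and length, the compared groups alone, and each library left out.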

Additional observations from a re-analysis of the deposited data

Results flagged for a closer look

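For 9 results the effect of a treatment differed between set 1 and set 2 by the interaction term of limma (effect in set 2 minus effect in set 1, log2 scale of FPKM + 1). Of all genes 26.8% passed this test in A100-FMT vs. Sa, 28.4% in A10-FMT vs. Sa and 20.8% in A10-FMT vs. Con-FMT, beside 4, 2 and 3 of the 10 hormone genes. In A100-FMT vs. Sa the differences were 0.36 for Chga (adjusted p = 0.0191), 0.56 for Chgb (0.0265), 0.98 for Cck (0.00588) and 0.61 for Gcg (0.0432). In A10-FMT vs. Sa they were -0.92 for Nts (adjusted p = 0.0246) and 0.73 for Ghrl (0.0447). These 6 rest on the 2 Sa libraries of set 1, and without replicate 3 of that group Chgb (0.85, adjusted p = 0.0134 in limma) and Cck (0.86, adjusted p = 0.0287) passed while the other 4 did not (adjusted p from 0.0505 for Chga to 0.148 for Gcg). Without replicate 1 of that group the difference of Chgb was 0.28 (limma adjusted p = 0.110). With GC content and length adjusted Cck alone of the 4 passed in A100-FMT vs. Sa, with Chga at 0.08 (limma adjusted p = 0.750) and Chgb at 0.39 (0.212).

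In A10-FMT vs. Con-FMT, a comparison without Sa libraries, the differences were -0.48 for Cck (limma adjusted p = 0.0437), -0.97 for Sct (0.0113) and -0.98 for Nts (0.0179), and all 3 passed also without replicate 3 of Sa set 1 (adjusted p = 0.0257, 0.00302 and 0.0123 in limma). Over the 23 omissions of 1 library the call of Sct held in 23, that of Nts in 21 and that of Cck in 9, and that of Cck was also lost with GC content and length adjusted (adjusted p = 0.103 in limma). What the sets are is not given, and what they differ by was not tested.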

How the results depend on the processing

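The 28 called changes of the hormone genes were recomputed under 894 alternatives; 0 reversed, 675 kept the call and 219 kept the direction and lost it. The counts below are of the 10 genes called, with the reported count in brackets, and the cause of a change in them was not tested. They stand without the share of all genes under the same alternative, so they do not show whether the 10 genes differ from the rest. With GC content and length adjusted they were 2 (4) in A100-FMT vs. Con-FMT of set 1 and of both sets, 1 (5) in A100-FMT vs. Sa of set 1, 1 (4) and 1 (2) for the differences between the sets of A100-FMT and A10-FMT vs. Sa, and 1 (2) in set 2 vs. set 1. Array quality weights, which were 0.0859 for both Sa libraries of set 1, gave 0 in the set 1 comparisons of Con-FMT (1), A10-FMT (1) and A100-FMT (5) vs. Sa, in Con-FMT vs. Sa of both sets (1), in the differences between the sets of A10-FMT (2) and A100-FMT (4) vs. Sa and in set 2 vs. set 1 (2). The same weights gave 3 (0) in set 2 for Con-FMT vs. Sa and for A10-FMT and A100-FMT vs. Con-FMT, 2 (0) for A10-FMT vs. Sa of set 2, and 1 (0) for the difference between the sets of A100-FMT vs. Con-FMT. The column of the description gave 0 (1) in Con-FMT vs. Sa, 2 (1) in A10-FMT vs. Sa, 3 (5) in A100-FMT vs. Sa and 2 (1) in A10-FMT vs. Con-FMT of set 1. It gave 1 (0) in Con-FMT vs. Sa, 2 (0) in A10-FMT vs. Sa and 1 (0) in A100-FMT vs. Con-FMT of set 2, and 1 (0) for the difference between the sets of the last.

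The compared groups alone gave 0 in set 1 for Con-FMT (1), A10-FMT (1) and A100-FMT (5) vs. Sa and for A100-FMT vs. Con-FMT (4), 0 (1) in Con-FMT vs. Sa of both sets, and 0 (4) and 1 (2) for the differences of A100-FMT and A10-FMT vs. Sa. They gave 1 (0) in A10-FMT vs. Sa of set 2 and 2 (1) in A10-FMT vs. Con-FMT of set 1. No filter gave 0 (1) in Con-FMT vs. Sa and in A10-FMT vs. Con-FMT of set 1 and in Con-FMT vs. Sa of both sets, 3 (5) in A100-FMT vs. Sa of set 1, and 1 (2) for the difference of A10-FMT vs. Sa. That difference was also 1 (2) under quantile normalization and trimmed-mean scaling, the latter giving 0 (1) in Con-FMT vs. Sa of both sets. A pseudocount of 0.1 moved no count by more than 1.5 times, and cost 1 of the 28 calls. The median change of all genes moved by over 0.1 (log2) only in the difference between the sets of A10-FMT vs. Con-FMT, by -0.107 with no filter and -0.111 under trimmed-mean scaling.

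With the replicate number as a block the counts were 1 (2) for the difference between the sets of A10-FMT vs. Sa and 2 (1) in A10-FMT vs. Con-FMT of set 1, and 24 of the 28 calls held; those of Cck in A100-FMT vs. Con-FMT of set 1 (limma adjusted p = 0.0623), Tph1 in A100-FMT vs. Sa of set 1 (0.0676) and the differences between the sets of Ghrl in A10-FMT vs. Sa (0.0530) and Cck in A10-FMT vs. Con-FMT (0.0663) did not. The deviations of libraries of the same number correlated at r from -0.159 to 0.181 (15 pairs of set 1) and -0.352 to 0.319 (18 pairs of set 2). Pairs of different numbers gave -0.234 to 0.234 and -0.352 to 0.371. Deviations cancel out within groups of 2 or 3 libraries, so these values cannot decide whether libraries of the same number were paired.

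With each library left out in turn, the counts in set 1 ran from 0 to 2 for Con-FMT, 0 to 3 for A10-FMT and 1 to 6 for A100-FMT vs. Sa, and from 0 to 2 for A10-FMT and 0 to 4 for A100-FMT vs. Con-FMT. In set 2 they ran from 0 to 1, 0 to 2 and 0 to 0 vs. Sa, and 0 to 0 and 0 to 1 vs. Con-FMT. Over both sets they were 0 to 4, 0 to 3 and 0 to 2 vs. Sa and 0 to 0 and 1 to 5 vs. Con-FMT. For the differences between the sets they were 0 to 4, 0 to 3 and 2 to 5 vs. Sa and 1 to 3 and 0 to 1 vs. Con-FMT, and 2 to 3 in set 2 vs. set 1. Where Sa of set 1 kept 1 library, it was assumed to vary as the other groups do.

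Groups of 2 or 3 libraries limit precision, as do the unknown depth and the unstated meaning of the sets. Of the 10 genes Tph1 lay nearest the filter. Its SD over the 23 libraries was 25.6% of its mean, below the 27.8% of Nts.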
